A study of Homo sapiens with 4 samples.

Results

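The genes described here are the type I interferons IFNB1, IFNE and IFNK, the type III interferons IFNL1, IFNL2 and IFNL3, and the chains of their receptors, IFNAR1, IFNAR2, IFNLR1 and IL10RB. They were found by the gene symbol annotated to each probe set, a group of array probes read as 1 value. Of the 10 genes listed, 9 were measured, with 1 probe set each, among 17687 genes in all, and IFNE was not analysed here. The question was whether a transcript of an interferon or of its receptor was higher in prostate cancer cells in which TNFRSF13B had been silenced, beside the genes that interferon switches on.

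Gene expression was measured on 4 Affymetrix arrays, 1 for each condition. PC-3 cells, a human prostate cancer line that expresses no p53, and 22Rv1 cells, a human prostate cancer line that does express it, carried either a lentiviral pLKO.1 construct with a short hairpin RNA against TNFRSF13B (also named CD267), called shTNFRSF13B, or the pLKO.1 empty vector without a hairpin. All 4 cell populations had thus received lentivirus and puromycin selection, PC-3 cells were grown in F-12 medium and 22Rv1 cells in RPMI medium, and whether the stable cells were pools or clones was not stated. A single hairpin target sequence was used, and no second hairpin or non-targeting hairpin was measured. With 1 array per condition there was no replicate check, so each comparison below is a pair of values without a test, and the number of arrays limits its precision.

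Interferons are secreted proteins that cells make when they sense viral or misplaced nucleic acid. Type I interferons bind a receptor made of IFNAR1 and IFNAR2, which most cells carry, whereas type III interferons bind IFNLR1 paired with IL10RB, and IFNLR1 is largely restricted to epithelial cells and some leukocytes. Both receptors signal through the kinases JAK1 and TYK2 to a transcription factor complex that contains IRF9 and switches on the interferon-stimulated genes. IFNK is known from keratinocytes and IFNE from the epithelium of the female reproductive tract, while IFNB1 and the IFNL genes are induced in many cell types by IRF and NF-kappaB factors.

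The sequences before the start sites of the induced ligands are shown because they carry the elements through which these factors act. Each is the 250 bases upstream of the annotated start from RefSeq (GRCh38.p14), read in the direction of transcription. Capitals mark matches, on either strand, to the IRF core AANNGAAA, to a tandem IRF core GAAANNGAA or to the kappaB core GGAAATTCC, and the IRF patterns may overlap.
IFNB1, chr9:21077943-21078192, minus strand: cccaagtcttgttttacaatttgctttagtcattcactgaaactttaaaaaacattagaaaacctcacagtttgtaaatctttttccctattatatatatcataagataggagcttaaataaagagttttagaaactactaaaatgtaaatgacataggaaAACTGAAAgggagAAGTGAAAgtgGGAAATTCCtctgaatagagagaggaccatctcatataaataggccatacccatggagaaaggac
IFNL1, chr19:39296157-39296406, plus strand: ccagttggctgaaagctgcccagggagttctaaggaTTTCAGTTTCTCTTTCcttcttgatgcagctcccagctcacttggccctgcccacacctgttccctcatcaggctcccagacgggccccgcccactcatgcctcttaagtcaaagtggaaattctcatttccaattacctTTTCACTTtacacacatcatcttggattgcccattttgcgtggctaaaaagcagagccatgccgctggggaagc
IFNL3, chr19:39245251-39245500, minus strand: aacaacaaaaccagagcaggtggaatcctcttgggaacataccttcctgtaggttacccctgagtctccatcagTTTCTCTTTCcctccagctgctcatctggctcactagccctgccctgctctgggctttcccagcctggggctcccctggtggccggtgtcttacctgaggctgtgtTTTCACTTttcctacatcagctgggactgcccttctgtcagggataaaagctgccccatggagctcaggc

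The IFNB1 sequence held 2 IRF cores, at -89 to -82 and -76 to -69 from the start. It also held the only match to the kappaB core among the ligands, at -65 to -57. Only that exact string was searched for, so kappaB elements with other letters were not looked for in any window. The IFNL1 sequence held 3 IRF cores and 2 tandem cores, all on the opposite strand, of which the IRF core nearest the start lay at -74 to -67. The upstream window of IFNL3 held 2 IRF cores and 1 tandem core, and the IFNL2 window (chr19:39268146-39268395, plus strand) matched it at 249 of 250 bases, with the same matches. The IFNK window held 1 IRF core, at -107 to -100. No match was found in the windows of IFNE, IFNAR1, IFNLR1 or IL10RB, nor in a second window of IFNL3 at another annotated start. IFNAR2 was not examined in this way. Over all 35116 windows of this length, 20.3% held the IRF core, 6.88% the tandem core and 0.413% the kappaB core. Among 43 windows of 33 interferon-stimulated genes the same patterns were found in 90.7%, 67.4% and 6.98%. A match describes the letters and is not a measured binding site.

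To place dim values, each array was read against 349 olfactory receptor genes, which are hardly transcribed outside the nose. A gene was called above their range when its log2 value, the log2 of the array signal, was above their 95th percentile on that array, which was 4.98 on the PC-3 shTNFRSF13B array, 4.92 on the PC-3 empty vector array, 5.302 on the 22Rv1 shTNFRSF13B array and 3.91 on the 22Rv1 empty vector array. The 22Rv1 empty vector array stood apart, with a median over all probe sets of 5.33 against 6.93 to 7.01 on the other 3 arrays, so the 22Rv1 levels are given as deposited and the log2 ratios of the interferon and receptor genes also after quantile normalization, by which all 4 arrays share 1 distribution of values. The targeted gene, TNFRSF13B, was at 4.85 after silencing and 5.25 in the control for PC-3, and at 5.63 and 6.08 for 22Rv1. Its log2 ratios were thus -0.40 (PC-3) and -0.45 (22Rv1, or -2.20 when quantile normalized), from PC-3 values close to the olfactory receptor limit. The 5 PC-3 markers (VIM, CAV1, ITGA3, CD44 and AXL) were between 10.40 and 15.47 on the PC-3 arrays and between 4.13 and 10.07 on the 22Rv1 arrays, where CD44 was the highest, and AXL had a log2 ratio of -1.90 in PC-3 cells. Of 4 luminal markers measured, STEAP2 was higher in 22Rv1 cells, KLK3 (6.38 to 7.54) and KLK2 (4.79 to 7.35) overlapped between the lines as deposited, and TRPM8 was within the range on all arrays. On the 22Rv1 shTNFRSF13B array KLK3 and KLK2 were above both PC-3 arrays, which reached 6.99 and 5.68. Their lowest values came from the 22Rv1 empty vector array, which stood apart in level, so the overlap depended on that array. Of 6 leukocyte markers measured, with values up to 5.56, CD3E was above the range on all 4 arrays, CD14 on 3 and PTPRC on 1. CLEC4C and IL3RA, markers of plasmacytoid dendritic cells, and HLA-DRA were above it on none of the 4. The PC-3 log2 ratios of the 6 leukocyte markers ran from -0.38 to 0.38.

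Both chains of the type I receptor were bright in both lines, IL10RB was intermediate, and the interferons themselves were at or near the olfactory receptor range. On the PC-3 shTNFRSF13B array 7 of the 9 genes were above the range, where 66.4% of all genes were. On the PC-3 empty vector array 6 were, against 66.2% of all genes, on the 22Rv1 shTNFRSF13B array 4 against 63.4%, and on the 22Rv1 empty vector array 5 against 65.5%. The 4 receptor genes were above the range on all 4 arrays, and the differing counts came from IFNB1, IFNL1 and IFNL3. The signal of a probe set also depends on its probes, so a place against this range is not an amount of RNA. The transcription factor IRF3, which cells use widely, was within the range on all 4 arrays, at 3.85, 4.09, 3.22 and 3.25. In these bulk cultures, fewer cells making a transcript and less of it per cell cannot be told apart.

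**Figure D1:**
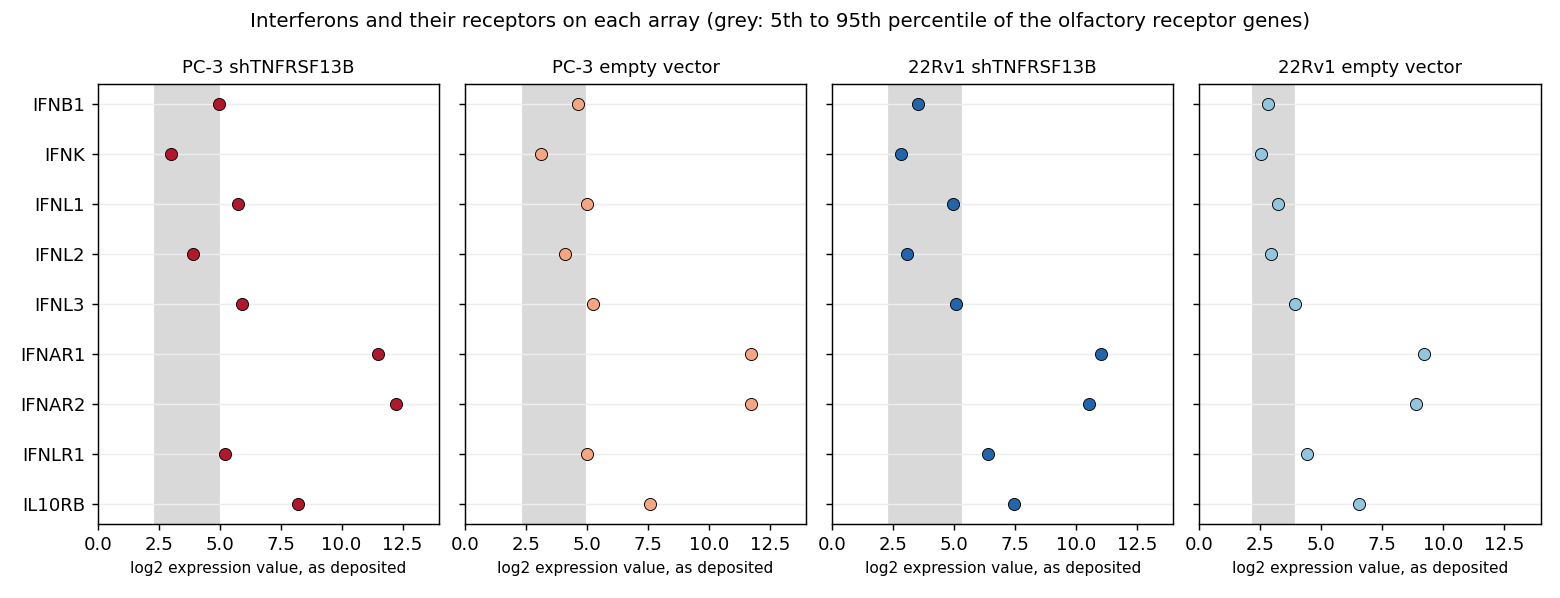
Log2 expression value (x axis, as deposited) of each measured interferon and receptor gene (y axis) on the 4 arrays, 1 panel per array and 1 point per gene, with the grey band from the 5th to the 95th percentile of 349 olfactory receptor genes. IFNAR1 and IFNAR2 lie between 8.90 and 12.22, far to the right of the band on every array, while IFNK and IFNL2 lie within it on every array.

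IFNB1, the type I interferon that most cell types can make, was measured at 4.99 in PC-3 cells with shTNFRSF13B, 4.62 in PC-3 cells with the empty vector, 3.54 in 22Rv1 cells with shTNFRSF13B and 2.82 in 22Rv1 cells with the empty vector. The highest of these values exceeded the olfactory receptor limit by 0.0067, and 18 olfactory receptor genes were brighter on that array, so IFNB1 was at the upper edge of the range in silenced PC-3 cells and within it elsewhere. Its log2 ratio, shTNFRSF13B minus empty vector, was 0.37 in PC-3 cells, a 1.29-fold higher value. In PC-3 cells 62 of the 349 olfactory receptor genes had a ratio at least as high. In 22Rv1 cells the ratio was 0.72 as deposited and -0.04 after quantile normalization. IFNB1 was thus not separated from the olfactory receptor genes by its ratio in either line.

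IFNK, the keratinocyte interferon, was measured at 3.02 and 3.12 in PC-3 cells with shTNFRSF13B and with the empty vector. The corresponding values in 22Rv1 cells were 2.82 and 2.52. On each array at least 238 olfactory receptor genes were brighter. The log2 ratio was -0.10 for PC-3, and for 22Rv1 it was 0.30 as deposited and -0.17 after quantile normalization.

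The type III interferons differed among themselves. IFNL1, also known as interleukin-29, was measured at 5.75 in PC-3 cells with shTNFRSF13B and 5.002 in PC-3 cells with the empty vector, both above the range, and at 4.97 and 3.23 in 22Rv1 cells, both within it. Only 5 olfactory receptor genes were brighter than IFNL1 on the PC-3 shTNFRSF13B array, compared with 17 on the PC-3 empty vector array. IFNL1 had the highest PC-3 log2 ratio of the 9 genes, 0.75 or 1.68-fold, and 12 olfactory receptor genes (3.44%) had a ratio at least as high. In 22Rv1 cells its log2 ratio was 1.74 as deposited and 0.64 after quantile normalization, which made it the only ligand that was higher with shTNFRSF13B in both lines on both scales. After quantile normalization 55 olfactory receptor genes had a 22Rv1 ratio at least as high.

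IFNL3 was measured at 5.92 in PC-3 cells with shTNFRSF13B and 5.25 in PC-3 cells with the empty vector, with 3 and 9 brighter olfactory receptor genes on these arrays. On the 22Rv1 arrays it was at 5.10 with shTNFRSF13B, within the range, and at 3.94 with the empty vector, which was 0.03 above the limit. Its PC-3 log2 ratio was 0.67, or 1.59-fold, and 15 olfactory receptor genes had a ratio at least as high. The 22Rv1 log2 ratio was 1.17 as deposited and -0.15 after quantile normalization, so its direction in that line depended on the scaling.

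IFNL2, a near-identical neighbour of IFNL3 on chromosome 19, was measured at 3.89 and 4.12 in PC-3 cells with shTNFRSF13B and with the empty vector, and at 3.07 and 2.94 in 22Rv1 cells. All of these values were within the olfactory receptor range, and the PC-3 log2 ratio was -0.23, which was 0.90 below that of IFNL3. The 22Rv1 ratio was 0.13 as deposited and -0.63 after quantile normalization. Probes for 2 such similar genes may each bind RNA of the other, so the values of IFNL2 and IFNL3 cannot be assigned to 1 of them with certainty.

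IFNAR1, the chain of the type I receptor that binds TYK2, was measured at 11.50 in PC-3 cells with shTNFRSF13B, 11.74 in PC-3 cells with the empty vector, 11.02 in 22Rv1 cells with shTNFRSF13B and 9.24 in 22Rv1 cells with the empty vector. No olfactory receptor gene was brighter on any array. The PC-3 log2 ratio was -0.24, which 235 olfactory receptor genes equalled or exceeded, and the 22Rv1 ratio was 1.79 as deposited and 0.15 after quantile normalization. IFNAR1 was therefore the gene whose deposited ratios pointed furthest apart in the 2 lines, although most of that gap was no longer seen after quantile normalization.

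IFNAR2, the JAK1-binding chain that gives the type I receptor most of its affinity, was measured at 12.22 and 11.74 in PC-3 cells with shTNFRSF13B and with the empty vector. In 22Rv1 cells its values were 10.54 and 8.90. The PC-3 log2 ratio was 0.48, or 1.40-fold, and 39 olfactory receptor genes had a ratio at least as high. In 22Rv1 cells it was 1.64 as deposited and -0.04 after quantile normalization. The chains of 1 receptor thus had PC-3 ratios of opposite sign, and the ratio of IFNAR1 was lower than that of IFNAR2 by 0.72 as deposited and 0.76 after quantile normalization.

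IFNLR1, the chain particular to the type III receptor, was measured at 5.20 and 5.01 in PC-3 cells with shTNFRSF13B and with the empty vector, 0.22 and 0.09 above the olfactory receptor limit. In 22Rv1 cells it stood further above the range, at 6.38 with shTNFRSF13B and 4.43 with the empty vector, with 2 and 6 brighter olfactory receptor genes against 12 and 17 in PC-3 cells. The PC-3 log2 ratio was 0.19, and 109 olfactory receptor genes had a ratio at least as high. The 22Rv1 ratio was 1.95 as deposited, the highest of the 9 genes, and 0.52 after quantile normalization, so that IFNLR1 joined IFNL1 as the genes higher with shTNFRSF13B in both lines on both scales. After quantile normalization 64 olfactory receptor genes had a 22Rv1 ratio at least as high as that of IFNLR1. The share of all genes higher in both lines on both scales was not computed.

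IL10RB, the chain that the type III receptor shares with the receptors for interleukin-10 and interleukin-22, was measured at 8.22 and 7.59 in PC-3 cells with shTNFRSF13B and with the empty vector, and at 7.46 and 6.56 in 22Rv1 cells. At most 1 olfactory receptor gene was brighter on any array. Its PC-3 log2 ratio was 0.62, or 1.54-fold, and 17 olfactory receptor genes had a ratio at least as high. In 22Rv1 cells the ratio was 0.90 as deposited and -0.89 after quantile normalization, the widest disagreement in sign between the scales among the receptor genes.

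Counted together, none of the 9 genes was at least 2-fold higher with shTNFRSF13B in PC-3 cells, where 5.76% of all genes were, and none was at least 2-fold lower, where 4.69% of all genes were. The PC-3 ratios ran from -0.24 for IFNAR1 to 0.75 for IFNL1 with IFNB1 at the median of 0.37, against a median over all genes of -0.0019, and 6 of the 9 were above 0. For comparison, the ratios of the olfactory receptor genes in PC-3 cells ran from -0.82 at their 5th percentile to 0.61 at their 95th, and IFNL1, IFNL3 and IL10RB lay above that span. Among all genes their place was less extreme, with 90.1%, 88.1% and 86.9% of all genes having a lower ratio, respectively. After quantile normalization the olfactory receptor span was -0.76 to 0.56, and IFNL1 (0.64), IFNAR2 (0.59) and IL10RB (0.58) lay above it while IFNL3 was at its edge. On that scale 87.6%, 86.2% and 86.0% of all genes had a lower ratio than IFNL1, IFNAR2 and IL10RB, respectively. In 22Rv1 cells, 5 genes (IFNL1, IFNL3, IFNAR1, IFNAR2 and IFNLR1) were at least 2-fold higher on the deposited scale, where 58.3% of all genes were, and none was at least 2-fold lower, where 2.01% were. The median of the 9 ratios was then 1.17, that of IFNL3, close to the 1.22 over all genes. After quantile normalization none of the 9 passed 2-fold in either direction, where 13.3% of all genes were higher and 15.5% lower, and 6 of the 9 ratios changed sign. Their median was -0.04, that of IFNB1, beside -0.06 over all genes.

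**Figure D2:**
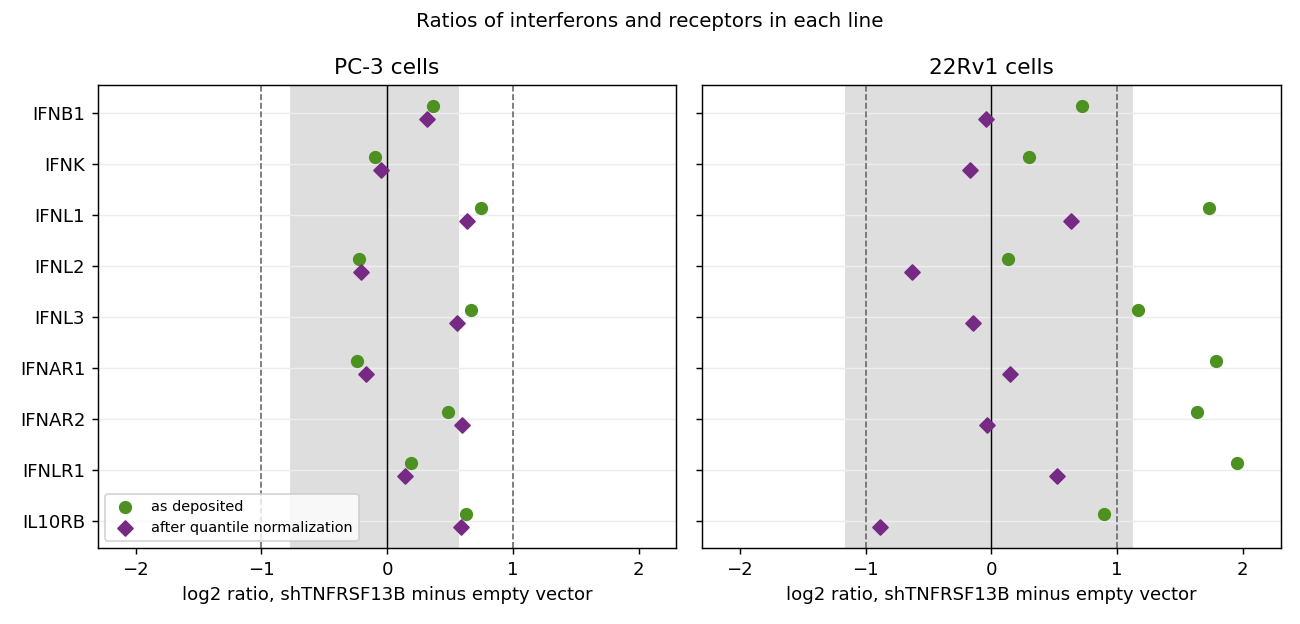
Log2 ratio (x axis, shTNFRSF13B minus empty vector) of each gene (y axis) in PC-3 cells (left) and 22Rv1 cells (right), as deposited (circles) and after quantile normalization (diamonds), 1 pair of arrays per line. Dashed lines mark 2-fold, and the grey band runs from the 5th to the 95th percentile of the olfactory receptor ratios after quantile normalization (-0.76 to 0.56 on the left, -1.16 to 1.12 on the right). The scales nearly coincide in PC-3 cells and part in 22Rv1 cells.

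Between the lines, the type I receptor chains were higher in PC-3 cells. IFNAR2 was higher by 1.68 on the log2 scale with shTNFRSF13B and by 2.84 with the empty vector as deposited, and by 1.66 and 1.03 after quantile normalization. The corresponding differences for IFNAR1 were 0.48 and 2.51 as deposited, and 0.41 and 0.72 after quantile normalization. IFNB1 was also higher in PC-3 cells, by 1.36 and 1.002 after quantile normalization, though from values within or at the edge of the range. IFNLR1 went the other way after quantile normalization, with PC-3 minus 22Rv1 differences of -1.10 with shTNFRSF13B and -0.72 with the empty vector, while as deposited the empty vector pair gave 0.58. For IL10RB the differences after quantile normalization were 0.70 and -0.77, so the lines had no single order for it.

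The genes downstream of the receptors moved by far more than the ligands and receptors in PC-3 cells. Of 40 interferon-stimulated genes measured, 39 were at least 2-fold higher with shTNFRSF13B and none was 2-fold lower, where 5.76% and 4.69% of all genes were. The 40 genes had a median log2 ratio of 4.82 and a range from 0.36 for ISG20 to 10.25 for IFI44L. This list was chosen with earlier results of these data known, so the count is a description and not a test. The exception by threshold, ISG20, encodes an exonuclease. The 9 ligand and receptor genes showed no difference of that size, the highest being the 0.75 of IFNL1. As deposited, 22Rv1 cells had 27 of these 40 genes past 2-fold upwards and 1 downwards, with a median of 1.32 against 1.22 over all genes, of which 58.3% were higher and 2.01% lower by this threshold. Of the 40 genes, 11 were higher and 2 lower after quantile normalization, with a median of 0.21 against -0.06 over all genes, of which 13.3% were higher and 15.5% lower. Since PC-3 and 22Rv1 ratios rest on 1 pair of arrays each, whether they differ between the lines was not tested.

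Among the signal transducers of both receptors, IRF9, the DNA-binding subunit of that complex and itself an interferon-stimulated gene, was measured in PC-3 cells at 12.49 after silencing against 7.03 in the control, giving a log2 ratio of 5.46. In 22Rv1 cells IRF9 was measured at 6.64 and 5.41, and its log2 ratio was 1.23 as deposited and -0.39 after quantile normalization. The kinases JAK1 and TYK2 had PC-3 log2 ratios of 0.42 and 0.40, and 22Rv1 ratios of 1.35 and 2.27 as deposited and -0.15 and 0.48 after quantile normalization. JAK1 was measured at 11.40 and 10.98 in PC-3 cells but at 5.96 and 4.61 in 22Rv1 cells, still above the olfactory receptor range on both 22Rv1 arrays. TYK2 was closer between the lines, at 10.45 and 10.04 in PC-3 cells and 9.09 and 6.82 in 22Rv1 cells.

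Of 8 genes that restrain interferon signalling, 1 was 2-fold higher and 1 was 2-fold lower in PC-3 cells, where 5.76% and 4.69% of all genes were. In 22Rv1 cells 3 were 2-fold higher and none lower as deposited, where 58.3% and 2.01% of all genes were. After quantile normalization 1 was higher (PTPN2, 1.69) and 1 lower (PTPN6, -1.38) there, beside 13.3% and 15.5% of all genes. USP18, which binds IFNAR2 and blocks JAK1, was measured at 11.41 after silencing against 6.10 in the control, giving a log2 ratio of 5.31, and its 22Rv1 ratio was 2.29 as deposited and 0.54 after quantile normalization. PTPN11, which encodes the phosphatase SHP2, was lower in PC-3 cells, at 12.35 against 14.38, a log2 ratio of -2.03. The 22Rv1 ratio of PTPN11 was 0.87 as deposited and -0.32 after quantile normalization. The PC-3 ratios of PIAS1 and PTPN1 were 0.64 and 0.49, and SOCS1 and SOCS3, induced inhibitors of JAK kinases, were within the olfactory receptor range on all 4 arrays.

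Other interferons were mostly within the olfactory receptor range. Of 16 genes, comprising 13 IFNA genes, IFNW1, IFNL4 and IFNG, none was at least 2-fold higher in PC-3 cells, where 5.76% of all genes were. The median log2 ratio of the 16 was -0.02. IFNA16 passed 2-fold downwards, at 2.76 against 3.84, both within the olfactory receptor range. The values above the range were those of IFNA14, 5.34 on the PC-3 shTNFRSF13B array, and of IFNA13, 5.22 on the PC-3 empty vector array, and none of the 16 was above it on a 22Rv1 array. The IFNA genes are close copies of each other and their probes may share RNA, as with IFNA1 and IFNA13, whose coding sequences encode the same protein. As deposited 7 of these 16 genes passed 2-fold upwards in 22Rv1 cells, where 58.3% of all genes did. After quantile normalization 1 was higher and 2 were lower, beside 13.3% and 15.5% of all genes.

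The receptor of the type II interferon, IFNG, was expressed without a 2-fold difference in PC-3 cells. IFNGR2, a neighbour of IFNAR1 on chromosome 21, was measured at 13.48 and 13.01 in PC-3 cells and at 10.89 and 10.33 in 22Rv1 cells, and IFNGR1 at 8.30 and 8.32 in PC-3 cells and at 8.53 and 7.44 in 22Rv1 cells. The direction in 22Rv1 cells depended on the scale, with log2 ratios of 0.55 for IFNGR2 and 1.09 for IFNGR1 as deposited and of -1.05 and -0.70 after quantile normalization. Of 7 class II cytokine receptor chains, IFNGR1 and IFNGR2 among them, none passed 2-fold in PC-3 cells. Of all genes 5.76% were higher and 4.69% lower by this threshold. The highest PC-3 ratio of the 7 was 0.97 for IL22RA1, which was within the olfactory receptor range on both arrays. In 22Rv1 cells 3 of the 7 were higher as deposited, where 58.3% of all genes were. After quantile normalization 2 were lower there, where 15.5% of all genes were. Class II MHC genes, which interferon-gamma induces through CIITA, had a median log2 ratio of -0.08 over 8 genes in PC-3 cells. Of these 8, only HLA-DMA was 2-fold higher, at 6.52 against 5.37, and none was 2-fold lower, where 5.76% and 4.69% of all genes were. CIITA was at 4.11 and 4.37, within the range. In 22Rv1 cells 2 of the 8 were higher as deposited, where 58.3% of all genes were. After quantile normalization none passed 2-fold there, where 13.3% of all genes were higher and 15.5% lower.

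Upstream of the ligands, 5 of 16 genes whose products sense nucleic acid or switch interferon genes on were at least 2-fold higher in PC-3 cells and none was 2-fold lower. Of all genes 5.76% were higher and 4.69% lower by this threshold, and the median log2 ratio of the 16 was 0.13. The RNA sensor genes IFIH1 (7.57), RIGI (4.98) and TLR3 (3.08) and the transcription factor genes IRF1 (3.56) and IRF7 (2.18) had these log2 ratios. All 5 are themselves known as interferon-inducible genes. The other 11 genes had ratios between -0.77 for MAVS and 0.61 for STING1, among them DHX58, another interferon-inducible gene, which was above the olfactory receptor range on all 4 arrays and had a ratio of -0.055. In the 22Rv1 pair 11 of these genes passed 2-fold upwards as deposited, where 58.3% of all genes did, and 5 after quantile normalization, where 13.3% did, and none was 2-fold lower on either scale.

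**Figure D3:**
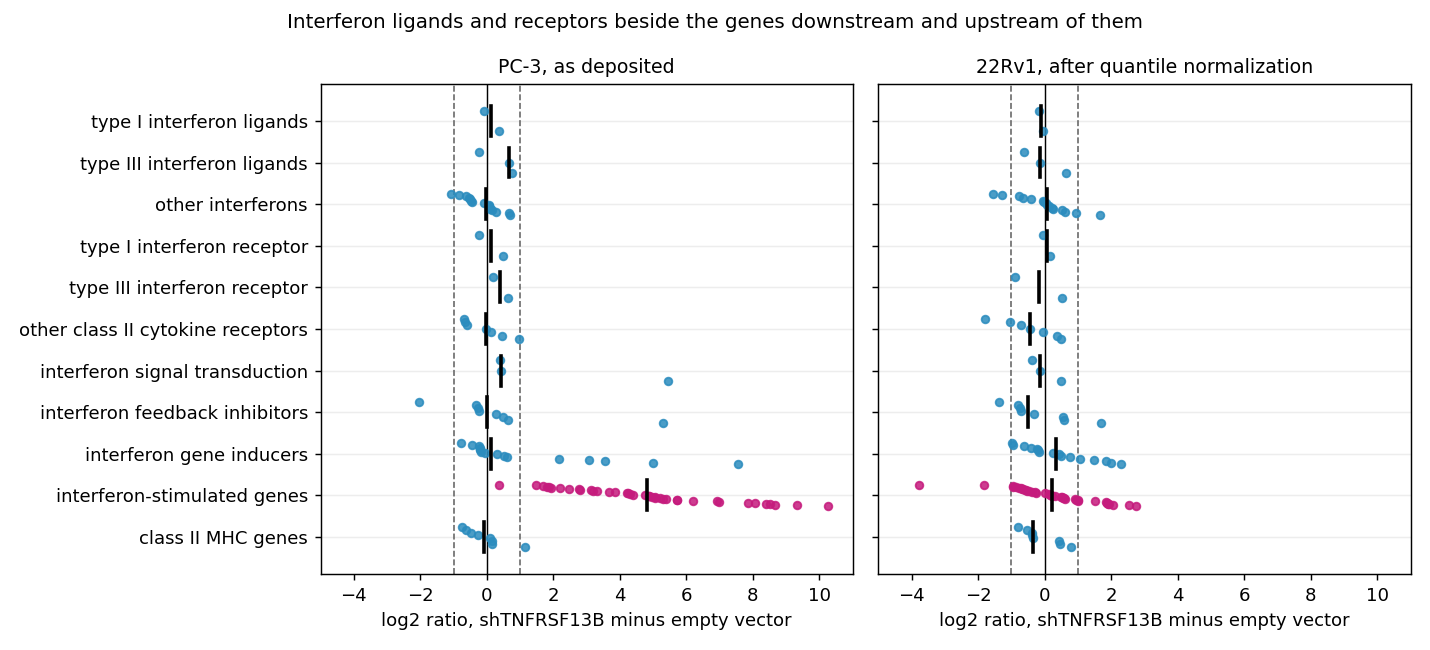
Log2 ratio (x axis, shTNFRSF13B minus empty vector) of every measured gene of each list (y axis), in PC-3 cells as deposited (left) and in 22Rv1 cells after quantile normalization (right), with 1 point per gene, a black bar at the list's median and dashed lines at 2-fold. In PC-3 cells the interferon-stimulated genes (pink) centre on 4.82, whereas all ligand and receptor genes described here lie between -0.24 and 0.75.

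Across the 4 arrays, the genes whose pattern was nearest to a given interferon or receptor gene were found by Euclidean distance after quantile normalization and centring, among 13193 genes above the olfactory receptor range on at least 1 array. MRPL40, a mitochondrial ribosomal protein gene, was nearest to IFNAR1 at a distance of 0.04, and PPCS, a coenzyme A synthesis gene, was nearest to IL10RB at 0.04. The nearest genes were BNC1 for IFNAR2, PCDHB13 for IFNLR1, SCFD2 for IFNB1, PRECSIT for IFNL1 and ZNRF2 for IFNL3, at distances from 0.06 to 0.10. Ranks over 4 arrays rest on few points.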

How the data were processed

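Total RNA of 4 cell populations was hybridised to Affymetrix Clariom arrays (the study's methods name Clariom D). The authors deposited log2 values per probe set, made according to the submitters' processing notes with RMA, Affymetrix Expression Console and Partek. Program versions and the genome build are not given in the sources used here. Of 24351 probe sets, 17709 had 1 listed symbol and 6642 had none listed. The RefSeq table (GRCh38.p14) listed the gene numbers of all 17709. For 20 genes with several probe sets the brightest by mean was used, which left 17687 genes. No filter or pseudocount was applied.

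Groups came from the sample labels. Log2 ratios were computed with Python 3.11.15, numpy 2.4.6, pandas 2.3.3 and statsmodels 0.14.6, as was a loess of ratio on level (span 0.4), and figures were drawn with matplotlib 3.10.9. The threshold was 2-fold, the study's criterion. The computation was tested on simulated data. The members, lists and rules were chosen with earlier results of these data known. Named genes are all members, TNFRSF13B, up to 4 genes of each other list with the largest PC-3 ratios among those above the olfactory receptor range, and the nearest patterns. ISG20, IRF3, IRF7, SOCS1, SOCS3, PTPN2, PTPN6, IFNA16, IL22RA1, CIITA, CAV1, TRPM8, CLEC4C, IL3RA, HLA-DRA, MAVS, STING1, TICAM1 and DHX58 were named after their values were seen. Alternatives were quantile normalization, a common median, loess, other thresholds and limits, a filter on low values and the mean of probe sets.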

Additional observations from a re-analysis of the deposited data

Results flagged for a closer look

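The deposited log2 ratio pointed in opposite directions in the 2 lines for 3 genes: in PC-3 cells they were lower with shTNFRSF13B, and in the 22Rv1 pair they were higher. The gap, 22Rv1 ratio minus PC-3 ratio, was 2.03 for IFNAR1, 0.40 for IFNK and 0.36 for IFNL2. With 1 array per condition this difference was not tested. After quantile normalization IFNAR1 still pointed in opposite directions (-0.16 for PC-3 and 0.15 for 22Rv1), while IFNK and IFNL2 were lower in both lines. On that scale IFNB1, IFNL3, IFNAR2 and IL10RB also differed in sign, each with a ratio above 0 for PC-3 and below 0 for 22Rv1. The 22Rv1 ratios of IFNB1 (-0.04), IFNL3 (-0.15) and IFNAR2 (-0.04), like that of IFNAR1, were small beside the SD of the olfactory receptor ratios there (0.75). That of IL10RB was -0.89.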

How the results depend on the processing

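In PC-3 cells the 9 genes had 27 recomputed ratios (quantile normalization, common median and loess). All differed from the deposited ratio by less than 1 SD of the olfactory receptor ratios (0.46), and none changed sign. That SD is a spread between dim genes on 1 pair of arrays and does not measure a spread between replicates. No gene passed 2-fold in PC-3 cells under any of these scalings, where 4.92% to 5.90% of all genes were higher and 4.25% to 5.72% lower. At 1.5-fold 3 were higher as deposited, IFNL1, IFNL3 and IL10RB. Of the 17687 genes, 2320 had a higher ratio than IL10RB, the lowest of these 3. In 22Rv1 cells the 5 genes at least 2-fold higher became 0 after quantile normalization, 0 with a common median and 0 with loess. Of all genes, 13.3%, 10.8% and 13.4% were at least 2-fold higher on these 3 scales. With a common median 2 genes, IFNK and IFNL2, were at least 2-fold lower in 22Rv1 cells, where 28.2% of all genes were. The ratio of IFNL3 there became -0.15, -0.47 and -0.055 under these 3 scalings, and that of IFNAR2 became -0.037 after quantile normalization and -0.010 with loess. The cause was not tested. With the limit at the 99th percentile of olfactory receptor genes, 4 genes were above it on the PC-3 shTNFRSF13B array, 3 on the PC-3 empty vector array and 3 on the 22Rv1 empty vector array. At the 90th percentile the count on the 22Rv1 shTNFRSF13B array went from 4 to 6, with IFNL1 and IFNL3 then above the limit, and the other 3 counts did not change. Against the 95th percentile of 23 background probe sets, the counts were 3, 3, 2 and 3 on the 4 arrays, all of them receptor genes. Shares of all genes above these other limits were not computed, so these counts cannot be set against genes in general. No paired analysis was possible because each condition has 1 array. Leaving out a replicate was not possible for the same reason. The ligands' signals near the dim reference limit what their ratios can show.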
